A study of Mus musculus with 6 samples.

Results

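The collagen genes are the protein-coding rows of the count table whose symbol reads Col, a number, the letter a and a second number, and 44 of the 54232 rows (21906 of them protein-coding) fitted that rule. By the kind of chain they encode, 11 were fibrillar, 8 belonged to the basement membrane and 25 to other classes. The counts came from RNA-Seq of primary oviductal smooth muscle cells of the mouse, with 3 WT libraries and 3 libraries with conditional loss of Pbrm1 (Pbrm1 cKO). All cells were taken on day 2 of pregnancy from females aged 8 to 12 weeks that had been mated with stud males. Pbrm1 encodes a subunit of the SWI/SNF chromatin remodelling complex. In the study, floxed Pbrm1 was deleted by a cre recombinase placed at the progesterone receptor gene (PR-IRES-cre), so only cells with a history of that receptor can lose the gene. The labels call the controls WT, whereas a legend in the study's supplement names floxed mice. Oviducts were digested with trypsin, collagenase type I and dispase, filtered, plated for 4 h and kept for 2 h more in fresh medium before RNA was taken. A supplement legend speaks of biological replicates, but whether each library holds cells of a single animal or of a pool is not stated in the labels.

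Collagens are secreted proteins in which 3 chains wind into a triple helix. Fibrillar collagens (types I, II, III, V, XI, XXIV and XXVII) have long helices, and fibrils of the major types give tissue its tensile strength. Types V and XI are held inside fibrils of type I or II as regulators of fibril diameter. Type IV chains form the sheet-like network of basement membranes, which surround each smooth muscle cell and underlie every epithelium, and types XV and XVIII carry heparan or chondroitin sulfate chains in the same zone. The remaining classes include the beaded filaments of type VI, fibril-associated collagens that sit on the fibril surface, short chain networks and transmembrane forms.

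Library totals ran from 17057699 to 18840290 counts in WT and from 15390818 to 18947947 counts in Pbrm1 cKO, and collagen genes took 1.51% ± 0.0649 (SD, n = 3) of WT counts and 1.78% ± 0.0436 of Pbrm1 cKO counts. Mitochondrial genes took 7.95% to 8.24% of WT counts and 6.88% to 7.81% of Pbrm1 cKO counts with no overlap, and the part of this difference in the collagen results was not tested. Levels below are in CPM, the usual per-million unit for counts, with library totals corrected by TMM factors. On library totals without these factors, a count of 3 corresponded to 0.158 to 0.195 CPM. A chi-square per gene between libraries was taken over genes of low mean count only (2231 to 2238 genes in each pair). On these genes Pbrm1 cKO replicate 2 stood somewhat apart, with 1.48 and 1.59 against the other Pbrm1 cKO libraries. The pair without it had 1.28 and pairs of WT libraries 1.31 to 1.36. Pbrm1 itself stood at 170.1, 183 and 172 CPM across the WT libraries and 43.5, 50.7 and 42.7 CPM across the Pbrm1 cKO libraries, a log2 fold change of −1.94 ± 0.064 (SE). Among the 8 smooth muscle markers, 5 were higher in Pbrm1 cKO (Acta2, Myh11, Tagln, Des and Lmod1) and 1 was lower (Smtn). Cnn1 and Myocd did not pass the test. The list summed to 3418 to 3482 CPM in WT and 4192 to 4669.6 CPM in Pbrm1 cKO. Most of that sum came from Tagln (1598 against 2000 CPM on average) and Acta2 (1287 against 1536 CPM). Markers of other cells are given by count, to be read beside the 43.7% of all genes tested that were called (21.9% higher and 21.8% lower). Of 10 fibroblast markers 9 were tested, 6 were higher and 2 lower, and their sum was 1246 to 1263 CPM in WT and 2087 to 2222 CPM in Pbrm1 cKO, with Pdgfra and Dcn as the most abundant. Of 8 leukocyte markers 7 were tested and 7 were higher (676 to 725 CPM against 997 to 1085 CPM), and 6 of 8 epithelial markers were higher (829.7 to 901 CPM against 1004 to 1119 CPM). Among 7 endothelial markers 1 was higher and 1 lower, and their sum was 331 to 348 CPM in WT and 265 to 274 CPM in Pbrm1 cKO. Kdr alone carried that lower sum (182 against 99.4 CPM on average), and the other 6 summed to 157 to 162 CPM and 161 to 177 CPM. Among 5 pericyte markers 4 were higher and 1 lower, with sums of 105 to 123 CPM and 89.9 to 111 CPM. The lower one was Cspg4 (91.3 against 55.9 CPM), and the 4 higher ones (Rgs5, Kcnj8, Abcc9 and Notch3) summed to 19.7 to 20.5 CPM in WT and 37.3 to 44.97 CPM in Pbrm1 cKO. Among 5 mesothelial markers 1 was higher and 2 were lower, with sums of 281 to 286 CPM and 325 to 357 CPM. The higher one was Krt19 (125 against 216 CPM), a keratin that epithelia also make, and the other 4 summed to 155 to 162 CPM in WT and 123 to 128 CPM in Pbrm1 cKO. Schwann cell markers (4, of which 2 tested and 1 higher) summed to 19.8 to 24.1 CPM and 28.7 to 29.5 CPM. No marker was at 0 in all 6 libraries. The part of these cell type markers in the collagen results was not tested, and in bulk RNA a change in the number of cells of a type cannot be told apart from a change in RNA per cell.

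Of the 44 collagen genes, 36 passed the filter on low counts and 21 of those changed at an adjusted p under 0.05 (edgeR quasi-likelihood test, Benjamini-Hochberg over 15376 genes), 15 higher and 6 lower in Pbrm1 cKO. That was 58.3% of the collagen genes tested, while 43.7% of all genes tested were called, 21.9% higher and 21.8% lower. By class, 6 of 10 fibrillar genes (4 higher, 2 lower), 4 of 8 basement membrane genes (2 higher, 2 lower) and 11 of 18 other genes (9 higher, 2 lower) changed. Non-overlapping ranges were seen for 20 of the 36 collagen genes, 14 above and 6 below WT, and for 53.5% of all genes tested. The median log2 fold change of the 36 was 0.20 and their median absolute log2 fold change 0.43, beside 0.0016 and 0.22 over all genes tested. Without Pbrm1 cKO replicate 2, 22 collagen genes passed, 20 of them among the 21. Changes ran from a log2 fold change of −1.63 for Col11a1 to 1.47 for Col14a1. Within several trimers and gene pairs a chain that moved stood beside a chain that did not pass the test. The difference between such chains was not tested.

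**Figure D1:**
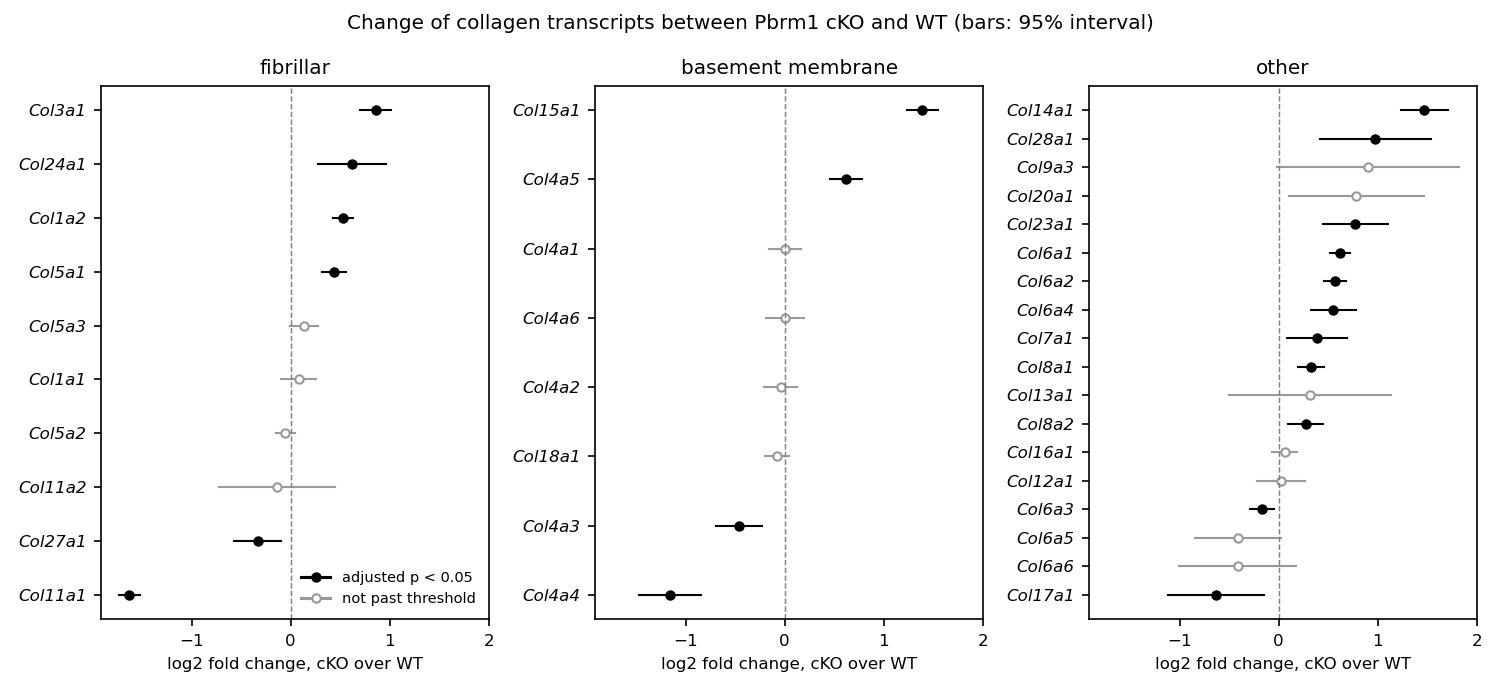
Log2 fold change of Pbrm1 cKO over WT (x axis) for the 36 collagen genes tested, by class, with 95% intervals; filled points passed an adjusted p under 0.05 and open points did not. Each class holds genes on both sides of 0, with Col11a1 at −1.63 and Col14a1 at 1.47 as the extremes.

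Type I and type III collagen chains make up the bulk of the fibrils of muscle and stroma. Col1a1, which encodes the α1 chain of type I, had the highest level per length of all collagen genes in WT (398 ± 47.3 CPM per kilobase of exon, SD, n = 3) and ranked 47 of the 21906 protein-coding rows over all 6 libraries. It stood at 2860.0, 2713 and 2264 CPM across the WT libraries and 2728, 3069 and 2499 CPM across the Pbrm1 cKO libraries. The groups overlapped, and the log2 fold change of 0.08 ± 0.083 (SE) had a 95% interval of −0.10 to 0.26 (adjusted p = 0.453, edgeR). Col1a2, the α2 chain of the same trimer, stood at 1729.7, 1673 and 1589.6 CPM across the WT libraries and 2395, 2427 and 2381 CPM across the Pbrm1 cKO libraries. Every Pbrm1 cKO library lay above every WT library, by 1.44-fold on average (log2 fold change 0.53 ± 0.045, adjusted p = 7.77e-07). Col3a1, whose product forms homotrimers in the thin fibrils of elastic tissues, had 1414, 1413 and 1424 CPM across the WT libraries and 2736, 2192 and 2795 CPM across the Pbrm1 cKO libraries. The WT values lay close together and all 3 Pbrm1 cKO values were higher, by 1.82-fold (log2 fold change 0.86 ± 0.073, adjusted p = 7.69e-07), with the lowest of them in replicate 2. Of its exon bases, 1.44% overlap another gene model on the same strand.

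Of the chains of types V and XI, which join fibrils of the major types, Col5a1 rose, Col11a1 fell and the other 3 did not pass the test. Col5a1 had 809, 737 and 690.0 CPM across the WT libraries and 991, 1026 and 1012 CPM across the Pbrm1 cKO libraries and rose 1.35-fold (log2 fold change 0.44 ± 0.054, adjusted p = 2.47e-05). Col5a2, its usual partner chain, had 1680.2, 1648 and 1713 CPM across the WT libraries and 1563, 1627 and 1664 CPM across the Pbrm1 cKO libraries, with overlapping groups and a 95% interval of −0.15 to 0.04 for the log2 fold change (adjusted p = 0.338). Col5a3 had 119.5, 107 and 102 CPM across the WT libraries and 121, 128 and 111 CPM across the Pbrm1 cKO libraries, and its log2 fold change of 0.13 did not pass the test (adjusted p = 0.116). In fits without WT replicate 1 and without Pbrm1 cKO replicate 3, Col5a3 passed as higher, with log2 fold changes of 0.20 and 0.19. Thus in the fit of all 6 libraries the α1 chain of type V rose while the other 2 chains did not pass the threshold. Col11a1, which encodes the α1 chain of type XI and is best known from cartilage, had 139, 142 and 138 CPM across the WT libraries and 46.7, 45.4 and 43.3 CPM across the Pbrm1 cKO libraries. This was the strongest fall of the 36 collagen genes tested, to 0.323 of the WT level (log2 fold change −1.63 ± 0.049, adjusted p = 3.69e-11), and in each group the 3 libraries lay close together.

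The less abundant fibrillar genes went both ways. Col24a1, a minor fibrillar chain, had 2.36, 2.41 and 2.52 CPM across the WT libraries and 4.05, 3.50 and 3.67 CPM across the Pbrm1 cKO libraries and rose (log2 fold change 0.62 ± 0.16, adjusted p = 0.00669). Col27a1, another minor fibrillar chain, had 10.9, 9.57 and 9.78 CPM across the WT libraries and 7.54, 8.75 and 7.66 CPM across the Pbrm1 cKO libraries and fell (log2 fold change −0.33 ± 0.11, adjusted p = 0.0232), a call that was lost under 4 of 14 alternative settings, DESeq2 among them. Col11a2, the α2 chain of type XI, stood at 1.65, 1.39 and 1.93 CPM across the WT libraries and 1.35, 1.11 and 2.12 CPM across the Pbrm1 cKO libraries and did not pass the test (adjusted p = 0.718). Col2a1, the main chain of cartilage fibrils, had at most 2 counts in any library and was not tested.

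**Figure D2:**
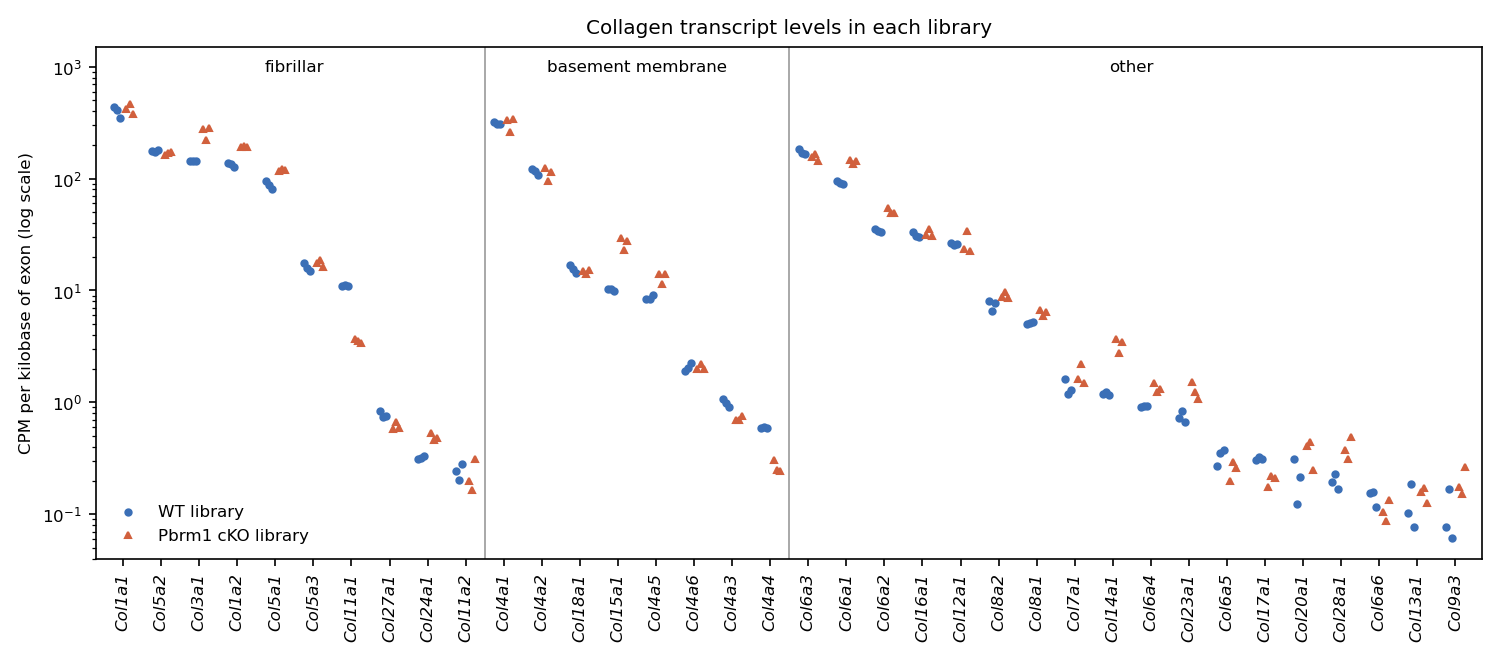
Level of each of the 36 collagen genes tested, in CPM per kilobase of exon on a log scale (y axis), in the 3 WT libraries (circles) and the 3 Pbrm1 cKO libraries (triangles), ordered within each class by the WT mean. Col1a1 leads with a WT mean of 398 CPM per kilobase, and the groups are well apart for Col3a1, Col11a1, Col15a1 and Col14a1.

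Upstream sequence is shown for Col3a1, Col15a1 and Col11a1, the collagen genes with the largest absolute log2 fold changes among those with a mean of at least 5 CPM per kilobase, and for the start shared by Col4a1 and Col4a2, whose transcripts did not pass the test. For the first set, the run is the 250 bases before the RefSeq start of the gene (GRCm38.p6), read 5′ to 3′ on the strand of the gene, which is the plus strand for all of them. Col3a1 lies at chr1:45311288-45311537, Col15a1 at chr4:47207762-47208011 and Col11a1 at chr3:114030290-114030539. Capitals mark matches, on either strand, to 5 short motifs, none of which contains another. They were the CCAAT box, the GC box searched as GGGCGG, the AP-1 site searched as TGACTCA, the usual core of a TATA box searched as TATAAA and a SMAD-type element searched as CAGACA. The run at the Col4a1 and Col4a2 starts covers chr8:11312797-11312834 on the plus strand, with the 22 bases between and including the 2 start sites in capitals.
Col3a1: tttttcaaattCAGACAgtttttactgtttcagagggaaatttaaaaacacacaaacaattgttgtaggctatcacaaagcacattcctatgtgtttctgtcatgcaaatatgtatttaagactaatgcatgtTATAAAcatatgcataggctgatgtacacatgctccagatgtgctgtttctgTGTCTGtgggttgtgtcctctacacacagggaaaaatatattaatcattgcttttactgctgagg
Col15a1: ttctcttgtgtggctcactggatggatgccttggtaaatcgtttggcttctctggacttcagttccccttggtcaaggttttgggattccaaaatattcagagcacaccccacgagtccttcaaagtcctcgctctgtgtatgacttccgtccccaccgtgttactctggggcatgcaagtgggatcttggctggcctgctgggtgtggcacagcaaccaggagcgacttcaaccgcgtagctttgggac
Col11a1: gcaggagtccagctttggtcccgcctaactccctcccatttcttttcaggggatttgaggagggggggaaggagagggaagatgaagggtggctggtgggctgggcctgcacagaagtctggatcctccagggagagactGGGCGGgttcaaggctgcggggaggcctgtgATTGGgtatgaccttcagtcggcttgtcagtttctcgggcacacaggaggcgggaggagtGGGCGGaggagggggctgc
Col4a1/Col4a2: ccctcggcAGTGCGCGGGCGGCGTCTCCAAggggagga
The Col3a1 run held 1 TATAAA and 2 CAGACA matches and had 35.2% G or C, the Col11a1 run held 2 GGGCGG matches and 1 CCAAT match and had 62.4% G or C, and the Col15a1 run held no match and had 53.6% G or C. The stretch at the Col4a1 and Col4a2 starts held 1 GGGCGG match among 38 bases, 76.3% of them G or C. A match is a string of letters and not a measured binding site.

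Over the wider set, 35 of the 44 collagen genes had at least 1 window of 300 bases (250 before and 50 after the start) in the RefSeq table, 19 of the 21 genes that changed among them, with 38 windows in all. GGGCGG was present in 23 of 38 collagen windows (60.5%), while 35.7% of all 32851 windows held it. The windows of Col4a1 and Col4a2 overlap by 78 bases, so the GGGCGG match printed at their starts lies in both. The median share of G or C was 59.8% in collagen windows and 52.7% in all windows. CCAAT was present in 13 of 38 (34.2%, beside 37.4% of all windows), TATAAA in 5 of 38 (13.2%, beside 13.6%) and CAGACA in 9 of 38 (23.7%, beside 21.04%). TGACTCA was found in 1 of 38, at Col6a1, beside 5.20% of all windows. Motif counts were taken as descriptions and were not tested against the changes in level.

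In the basement membrane class the most abundant chains did not pass the test, and the genes that did went both ways. Col4a1 and Col4a2, whose products form the α1α1α2 trimer found in nearly every basement membrane, were the most abundant of this class, with 311 ± 7.02 and 115 ± 6.83 CPM per kilobase in WT. Col4a1 had 2380.3, 2309.7 and 2278 CPM across the WT libraries and 2494, 1965 and 2529 CPM across the Pbrm1 cKO libraries. Col4a2 had 799, 781 and 713 CPM across the WT libraries and 831, 635 and 765 CPM across the Pbrm1 cKO libraries. In both genes Pbrm1 cKO replicate 2 was the lowest of all 6 libraries and the groups overlapped, with 95% intervals of −0.16 to 0.17 for Col4a1 and −0.21 to 0.13 for Col4a2 around log2 fold changes of 0.0042 and −0.04. Without that library Col4a1 passed the test as higher (log2 fold change 0.12, adjusted p = 0.0189, the lowest of 14 alternatives that reached up to 0.996) and Col4a2 changed sign (0.067, not past the test).

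Of the tissue-restricted type IV chains, Col4a3 and Col4a4 fell, Col4a5 rose and Col4a6 did not pass the test. Col4a3 and Col4a4, which with Col4a5 form the α3α4α5 network known from the kidney filter, were scarce. Col4a3 had 10.7, 9.78 and 9.07 CPM across the WT libraries and 6.92, 7.003 and 7.59 CPM across the Pbrm1 cKO libraries (log2 fold change −0.46 ± 0.11, adjusted p = 0.00368). Col4a4 had 6.32, 6.36 and 6.32 CPM across the WT libraries and 3.26, 2.65 and 2.57 CPM across the Pbrm1 cKO libraries (log2 fold change −1.16 ± 0.14, adjusted p = 2.39e-05). For both genes every Pbrm1 cKO library lay below every WT library, and Col4a3 shared 4.66% of its 50-base stretches with another gene. Col4a5, which also joins Col4a6 in the α5α5α6 network of smooth muscle basement membranes, went up with 56.2, 56.8 and 60.9 CPM across the WT libraries and 94.98, 77.3 and 94.96 CPM across the Pbrm1 cKO libraries (log2 fold change 0.62 ± 0.074, adjusted p = 1.83e-05). Col4a6 had 15.3, 16.3 and 17.8 CPM across the WT libraries and 16.0, 17.6 and 15.8 CPM across the Pbrm1 cKO libraries, with a log2 fold change of 0.0038 and a 95% interval of −0.18 to 0.19.

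Of the basement membrane zone collagens with glycosaminoglycan chains, Col15a1 rose and Col18a1 did not pass the test. Col15a1, which links basement membrane to the fibrils beneath it, had 65.7, 66.0 and 62.6 CPM across the WT libraries and 186, 147 and 176 CPM across the Pbrm1 cKO libraries. The Pbrm1 cKO libraries were higher by 2.62-fold with no overlap (log2 fold change 1.39 ± 0.074, adjusted p = 1.04e-08), the largest rise among basement membrane genes. Col18a1, the source of the fragment endostatin, had 118, 108 and 101 CPM across the WT libraries and 105, 98.9 and 107 CPM across the Pbrm1 cKO libraries, with a 95% interval of −0.20 to 0.05 for the log2 fold change (adjusted p = 0.303).

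Type VI collagen forms beaded filaments that connect cells to the surrounding matrix, and its standard trimer holds an α1, an α2 and an α3 chain. Col6a1 had 413, 404 and 395 CPM across the WT libraries and 641, 592 and 628 CPM across the Pbrm1 cKO libraries. Col6a2 had 297, 281 and 276 CPM across the WT libraries and 451, 409 and 408 CPM across the Pbrm1 cKO libraries. Both rose with no overlap, by log2 fold changes of 0.62 ± 0.045 (adjusted p = 2.08e-07) and 0.57 ± 0.051 (adjusted p = 1.15e-06). Col6a3, the α3 chain, had 2218, 2045 and 1984 CPM across the WT libraries and 1847, 1979 and 1725 CPM across the Pbrm1 cKO libraries and went the other way, with all Pbrm1 cKO libraries below all WT libraries (log2 fold change −0.17 ± 0.057, adjusted p = 0.027). It no longer passed in 4 of 6 fits that each left out a library, with log2 fold changes of −0.12 to −0.22 over all 6. Of the chains that can take the place of α3, Col6a4 rose from low levels, with 7.68, 7.86 and 7.90 CPM across the WT libraries and 12.7, 10.5 and 11.2 CPM across the Pbrm1 cKO libraries (log2 fold change 0.55 ± 0.11, adjusted p = 8.95e-04). Col6a5 and Col6a6 had log2 fold changes of −0.41 and −0.41 and did not pass the test (adjusted p = 0.119 and 0.245).

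Fibril-associated collagens coat the surface of fibrils and were mostly below the threshold. Col14a1, whose product binds type I fibrils and limits their growth, was the exception, with 8.27, 8.61 and 8.08 CPM across the WT libraries and 25.7, 19.4 and 24.4 CPM across the Pbrm1 cKO libraries. All Pbrm1 cKO values exceeded all WT values, by 2.78-fold, and this was the largest rise of the 36 collagen genes tested (log2 fold change 1.47 ± 0.11, adjusted p = 3.00e-07). Col12a1, which binds the same fibrils, had 408, 385 and 396 CPM across the WT libraries and 355, 514 and 342 CPM across the Pbrm1 cKO libraries. Pbrm1 cKO replicate 2 was the highest and the other 2 Pbrm1 cKO libraries were below every WT library, and the log2 fold change of 0.03 (adjusted p = 0.87) became −0.18 without that library (adjusted p = 0.00201, the lowest of 14 alternatives that reached up to 0.983). Col16a1, a fibril-associated chain of muscle and skin, had 224, 205 and 202 CPM across the WT libraries and 211, 239 and 208 CPM across the Pbrm1 cKO libraries, a 95% interval of −0.06 to 0.19 and adjusted p = 0.422. Col20a1 and Col9a3 had log2 fold changes of 0.78 and 0.90 at 1.12 and 0.390 CPM in WT and did not pass the test (adjusted p = 0.0601 and 0.105). As higher, Col20a1 passed under 3 of 14 alternatives and Col9a3 under 1 of 13.

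Of the 7 tested genes of the other small classes, 5 rose and 1 fell, beside 21.9% higher and 21.8% lower among all genes tested. Col8a1, a short chain collagen of vessel walls and smooth muscle, had 39.2, 39.8 and 40.7 CPM across the WT libraries and 52.8, 46.7 and 50.8 CPM across the Pbrm1 cKO libraries (log2 fold change 0.33 ± 0.061, adjusted p = 6.60e-04). Its partner Col8a2 had 36.4, 29.2 and 34.8 CPM across the WT libraries and 39.1, 43.4 and 38.5 CPM across the Pbrm1 cKO libraries (log2 fold change 0.27 ± 0.082, adjusted p = 0.015), a call lost without WT replicate 2. Neither gene's groups overlapped. Col7a1, which forms the anchoring fibrils beneath epithelia, had 16.5, 12.1 and 13.3 CPM across the WT libraries and 16.6, 22.5 and 15.4 CPM across the Pbrm1 cKO libraries (log2 fold change 0.39 ± 0.14, adjusted p = 0.0397). It passed the test although its groups overlapped, and without Pbrm1 cKO replicate 2, its highest library, the log2 fold change was 0.20 and did not pass. Among transmembrane collagens, Col23a1 had 4.20, 4.81 and 3.81 CPM across the WT libraries and 8.66, 7.16 and 6.11 CPM across the Pbrm1 cKO libraries and rose (log2 fold change 0.78 ± 0.15, adjusted p = 0.00108). Col17a1, the hemidesmosome collagen of basal epithelial cells, had 1.77, 1.87 and 1.81 CPM across the WT libraries and 1.01, 1.27 and 1.22 CPM across the Pbrm1 cKO libraries and fell (log2 fold change −0.64 ± 0.23, adjusted p = 0.0352), a call lost under 8 of 14 alternatives. Col13a1, found at neuromuscular junctions, had a log2 fold change of 0.31 and did not pass the test (adjusted p = 0.539). Col28a1, a type VI-like collagen linked to peripheral nerve, had 0.945, 1.12 and 0.820 CPM across the WT libraries and 1.86, 1.54 and 2.38 CPM across the Pbrm1 cKO libraries and rose (log2 fold change 0.97 ± 0.26, adjusted p = 0.00813).

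The remaining 8 genes were too low for the test. Col9a1 had 0 counts in every library, which allows up to 0.158 to 0.195 CPM per library on totals without TMM factors. Col2a1, Col9a2, Col10a1, Col22a1, Col25a1 and Col26a1 had between 0 and 6 counts in each library. For Col19a1 the WT libraries held 5, 5 and 6 counts, and the Pbrm1 cKO libraries 15, 8 and 8. For Col19a1 and Col25a1 every Pbrm1 cKO count was above every WT count (1, 1 and 1 against 5, 4 and 2 for Col25a1), and for Col10a1 every Pbrm1 cKO count was below (4, 4 and 4 against 1, 1 and 2). With no filter 7 of the 8 were tested and 0 passed (edgeR, adjusted p from 0.189 for Col19a1 to 0.863 for Col22a1), and 0 had an unadjusted p under 0.05. The 95% intervals of the log2 fold change in that fit were wide, −0.03 to 1.92 for Col19a1, −0.18 to 3.68 for Col25a1 and −3.26 to 0.27 for Col10a1.

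Levels were summed per kilobase of exon to compare the classes, as a description. All collagen genes together gave 1892, 1814 and 1719 CPM per kilobase in WT and 2146, 2056 and 2099.6 CPM per kilobase in Pbrm1 cKO, a mean of 116% of WT. Fibrillar genes gave 1019, 979 and 905 CPM per kilobase in WT and 1189.5, 1201 and 1171 CPM per kilobase in Pbrm1 cKO, or 123% of WT, and every Pbrm1 cKO library exceeded every WT library. Basement membrane genes gave 479, 465 and 450.0 CPM per kilobase in WT and 521, 411 and 514 CPM per kilobase in Pbrm1 cKO, or 104% of WT, with Pbrm1 cKO replicate 2 below all other libraries. The other classes gave 394, 370.1 and 364 CPM per kilobase in WT and 435, 444 and 414 CPM per kilobase in Pbrm1 cKO, or 115% of WT. For these classes and for all collagen genes together, every Pbrm1 cKO library also exceeded every WT library per kilobase. Fibrillar genes held 53.5% ± 0.723 of the collagen sum in WT and 56.5% ± 1.63 in Pbrm1 cKO, and basement membrane genes 25.7% ± 0.448 and 22.9% ± 2.54 (SD, n = 3). A set of 9 genes (Col1a1, Col4a1, Col5a2, Col6a3, Col3a1, Col1a2, Col4a2, Col6a1 and Col5a1) held 90.2% of the WT sum, and the 9 highest genes in Pbrm1 cKO were the same set. Within it Col3a1 went from 8.00% ± 0.419 to 12.5% ± 1.42 of the collagen sum and moved from rank 5 to rank 3. These ranks hold for merged exon length, and on principal transcript length Col3a1 went from 10.6% to 16.04% and from rank 4 to rank 2.

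**Figure D3:**
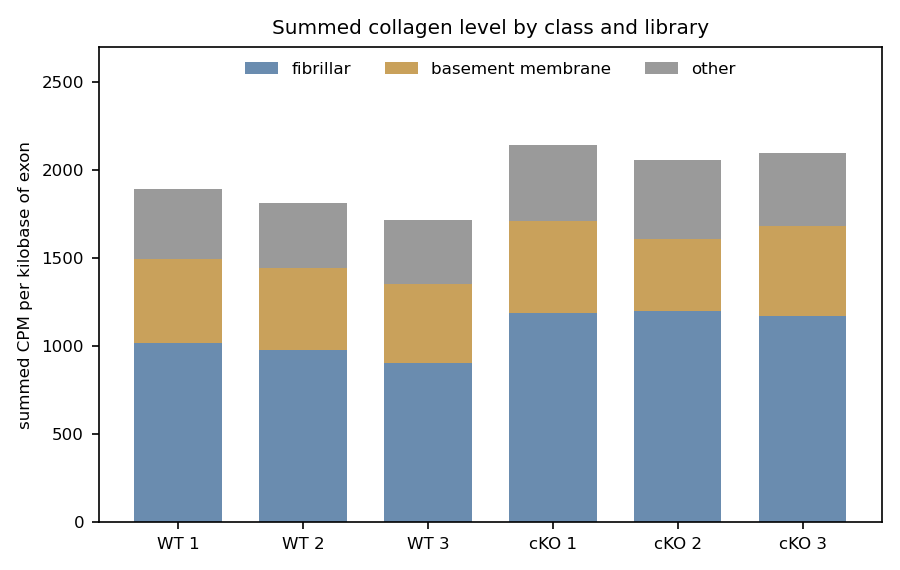
Summed level of collagen genes in CPM per kilobase of exon (y axis, from 0) for each library (x axis), stacked by class. The total runs from 1719 to 1892 in WT and from 2056 to 2146 in Pbrm1 cKO, and the fibrillar part accounts for most of the difference.

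Ratios of level per kilobase between chains that share a trimer or fibril were taken in each library as a description, and the difference between chains was not tested. The ratio of Col1a1 to Col1a2 was 3.13, 3.07 and 2.70 in the WT libraries and 2.16, 2.39 and 1.99 in the Pbrm1 cKO libraries, with no overlap. The size of a ratio depends on length while its change between the groups does not: the merged exons of Col1a2 span 12426 bases in the table and its principal transcript 5348 bases, and on the principal transcripts the mean ratio was 1.41 in WT and 1.04 in Pbrm1 cKO. Col5a1 to Col5a2 was 0.544, 0.505 and 0.455 in the WT libraries and 0.716, 0.712 and 0.687 in the Pbrm1 cKO libraries, again with no overlap and in the other direction. In contrast, Col4a1 to Col4a2 was 2.64, 2.62 and 2.83 in the WT libraries and 2.66, 2.74 and 2.93 in the Pbrm1 cKO libraries, and Col6a1 to Col6a2 was 2.64, 2.73 and 2.72 in the WT libraries and 2.70, 2.75 and 2.93 in the Pbrm1 cKO libraries. Both of these ratios overlapped between the groups. On principal transcripts the mean of Col6a1 to Col6a2 was 1.37 in WT and 1.42 in Pbrm1 cKO.

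A further set of ratios was chosen after the values were seen and is given as description. Col3a1 to Col1a1 was 0.330, 0.348 and 0.421 in the WT libraries and 0.671, 0.478 and 0.748 in the Pbrm1 cKO libraries. Col6a3 to Col6a1 was 1.97, 1.85 and 1.84 in the WT libraries and 1.05, 1.22 and 1.01 in the Pbrm1 cKO libraries. Col11a1 to Col5a1, chains of 1 subfamily, was 0.115, 0.128 and 0.134 in the WT libraries and 0.0314, 0.0294 and 0.0285 in the Pbrm1 cKO libraries. On principal transcripts the WT and Pbrm1 cKO means were 0.584 and 1.01 for Col3a1 to Col1a1 and 0.207 and 0.0490 for Col11a1 to Col5a1. In each of these ratios the groups were apart, upward for type III against type I and downward for the other pairs. Col4a5 to Col4a6 was 4.36, 4.15 and 4.06 in the WT libraries and 7.06, 5.21 and 7.12 in the Pbrm1 cKO libraries, upward with no overlap.

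**Figure D4:**
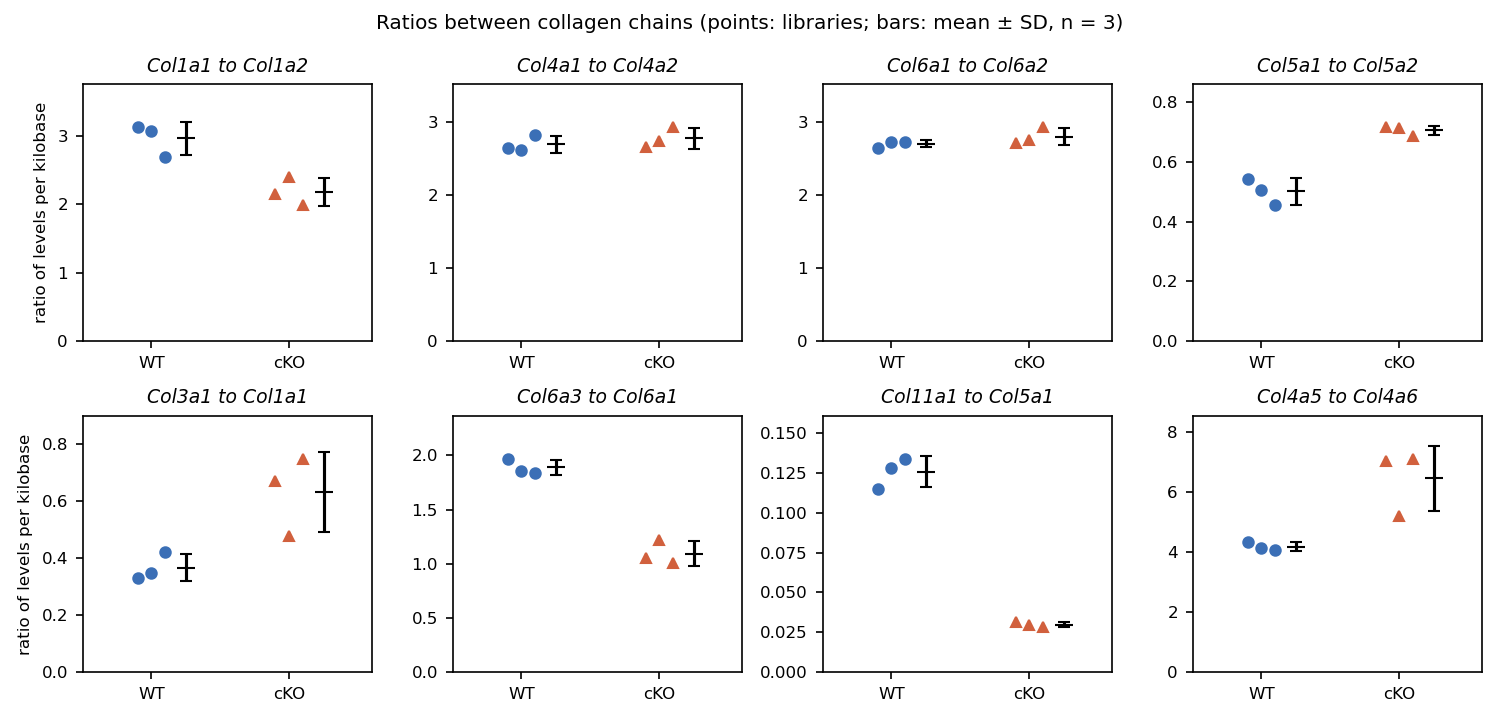
Ratio of level per kilobase of exon (y axis, from 0) between collagen chains in the WT (circles) and Pbrm1 cKO (triangles) libraries, with mean ± SD (n = 3) beside each group. The groups overlap for Col4a1 to Col4a2 and for Col6a1 to Col6a2 and are apart for the other pairs.

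Several collagen genes are neighbours in the genome, in the coordinates of the deposited table (GRCm38). Col4a1 and Col4a2 on chromosome 8 start 21 bases apart on opposite strands, at positions 11312826 and 11312805, within the run printed above, and neither passed the test. Col4a3 and Col4a4 on chromosome 1 start 72 bases apart, head to head, and both fell. Col4a5 and Col4a6 on chromosome X start 1309 bases apart, head to head, and had log2 fold changes of 0.62 and 0.0038. Col3a1 and Col5a2 on chromosome 1 lie tail to tail with 24614 bases between them and had log2 fold changes of 0.86 and −0.05. Col6a1 and Col6a2 lie on chromosome 10 in the same direction and both rose, whereas Col6a4 rose on chromosome 9 next to Col6a5 and Col6a6, which did not pass the test. The counting used strand, so reads of head-to-head genes were told apart by strand.

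A collagen chain is hydroxylated and glycosylated in the endoplasmic reticulum, folded, exported, trimmed and crosslinked, and genes for these steps were read from the same fit. Of 51 listed genes 50 were tested and 35 changed (70.0%), 26 higher and 9 lower, again beside 43.7% of all genes tested. Among hydroxylation and glycosylation genes, 8 of 15 were higher and 2 lower. P4ha2, a catalytic subunit of prolyl 4-hydroxylase, had 64.0, 70.1 and 66.0 CPM across the WT libraries and 144, 118 and 143 CPM across the Pbrm1 cKO libraries (log2 fold change 1.01 ± 0.071, adjusted p = 1.59e-07). P4ha3, another catalytic subunit, had 111, 113 and 107 CPM across the WT libraries and 49.7, 58.4 and 51.5 CPM across the Pbrm1 cKO libraries (log2 fold change −1.05 ± 0.060, adjusted p = 2.34e-08). The subunits thus moved in opposite directions by similar amounts, each with no overlap. P4ha1 (0.42), the prolyl 3-hydroxylase P3h1 (0.37), its partner cyclophilin Ppib (0.31), the galactosyltransferase Colgalt1 (0.28) and the shared subunit P4hb (0.26) rose by the log2 fold changes given, and P3h2 fell (−0.57).

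For folding and export, 5 of 9 genes were higher and 0 were lower. That was 55.6% called, beside 43.7% of all genes tested (21.9% higher and 21.8% lower). Serpinh1, the collagen chaperone HSP47, had 2204, 2027 and 2064 CPM across the WT libraries and 2768, 2653 and 2861 CPM across the Pbrm1 cKO libraries (log2 fold change 0.40 ± 0.048, adjusted p = 2.10e-05). Fkbp14, a peptidyl-prolyl isomerase that acts on type III and other collagens, had 42.0, 42.6 and 44.4 CPM across the WT libraries and 88.0, 78.0 and 94.6 CPM across the Pbrm1 cKO libraries (log2 fold change 1.01 ± 0.068, adjusted p = 1.01e-07). Both were higher in every Pbrm1 cKO library than in any WT library. Tmem38b (0.36), an ion channel of the endoplasmic reticulum, and the export factors Sec23a (0.21) and Mia2 (0.18) rose by the log2 fold changes given.

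Propeptide cleavage releases chains for fibril assembly, and 3 of the 7 genes tested were higher and 2 lower. The share called was 71.4%, beside 43.7% of all genes tested. Tll1, a tolloid-like C-propeptidase, had 37.4, 35.6 and 37.6 CPM across the WT libraries and 7.59, 10.9 and 7.98 CPM across the Pbrm1 cKO libraries. It fell to 0.239 of the WT level (log2 fold change −2.05 ± 0.11, adjusted p = 8.67e-09), while Bmp1, the main enzyme of that kind, rose from 147 ± 6.71 to 191 ± 6.97 CPM (log2 fold change 0.38 ± 0.049). Of the 3 N-propeptidases, Adamts14 fell, Adamts2 rose and Adamts3 did not pass the test. Adamts14 had 14.3, 13.0 and 13.3 CPM across the WT libraries and 5.29, 7.43 and 4.37 CPM across the Pbrm1 cKO libraries (log2 fold change −1.23 ± 0.15, adjusted p = 1.73e-05). Adamts2 had 154, 144 and 139 CPM across the WT libraries and 226, 187 and 218 CPM across the Pbrm1 cKO libraries (log2 fold change 0.53 ± 0.065, adjusted p = 2.34e-05). Adamts3 had a log2 fold change of 0.12 with overlapping groups (adjusted p = 0.304). Pcolce, an enhancer of C-propeptide cleavage, rose with overlapping groups (log2 fold change 0.25, adjusted p = 0.0166), a call lost in 3 of 6 fits without a library.

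Of the 5 crosslinking genes, 1 was higher and 2 were lower (60.0% called, beside 43.7% of all genes tested). Lox, lysyl oxidase, had 1094, 1161 and 1149 CPM across the WT libraries and 793, 818 and 779 CPM across the Pbrm1 cKO libraries (log2 fold change −0.51 ± 0.044, adjusted p = 8.64e-07). Loxl1, a relative best known for its action on elastin, had 224, 183 and 189 CPM across the WT libraries and 266, 252 and 279 CPM across the Pbrm1 cKO libraries (log2 fold change 0.42 ± 0.068, adjusted p = 2.49e-04). The groups were apart for both, in opposite directions. Loxl3 fell (log2 fold change −0.22, adjusted p = 0.0323), a call lost in 5 of 6 fits without a library and with library size scaling alone.

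Collagen receptors and uptake genes were mostly higher, 6 of 8, with 1 lower. That was 87.5% called, beside 43.7% of all genes tested (21.9% higher and 21.8% lower). Itga11, the α chain of a fibrillar collagen integrin, had 5.97, 7.54 and 7.85 CPM across the WT libraries and 18.4, 23.3 and 16.8 CPM across the Pbrm1 cKO libraries (log2 fold change 1.46 ± 0.14, adjusted p = 1.80e-06). Ddr2, a receptor tyrosine kinase for fibrillar collagen, had 158, 159 and 163 CPM across the WT libraries and 287, 261 and 269.8 CPM across the Pbrm1 cKO libraries (log2 fold change 0.77 ± 0.047, adjusted p = 4.11e-08). Each had Pbrm1 cKO libraries above all WT libraries. Lair1, a leukocyte receptor for collagen, had a log2 fold change of 1.08. Ddr1 (0.47), the integrin chain Itga1 (0.44) and the endocytic receptor Mrc2 (0.34) were also higher and the integrin chain Itga2 was lower (−0.18), by the log2 fold changes given.

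Of the 6 collagen-cleaving enzymes, 3 were higher and 2 lower (83.3% called, beside 43.7% of all genes tested). The collagenases Mmp13 and Mmp8 rose by log2 fold changes of 0.87 ± 0.15 and 0.86 ± 0.10, from WT means of 7.84 and 10.0 CPM. The gelatinase Mmp2 had 185, 194 and 189 CPM across the WT libraries and 240.0, 293 and 247 CPM across the Pbrm1 cKO libraries (log2 fold change 0.46 ± 0.065, adjusted p = 8.38e-05). Mmp14, the membrane-bound enzyme that activates pro-MMP2, had 521, 509.9 and 489 CPM across the WT libraries and 352, 414 and 342 CPM across the Pbrm1 cKO libraries (log2 fold change −0.46 ± 0.063, adjusted p = 6.45e-05). Thus Mmp2 and Mmp14 moved in opposite directions, each with no overlap. Mmp9 fell with overlapping groups (log2 fold change −0.31, adjusted p = 0.0385), a call lost under 5 of 14 alternatives.

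**Figure D5:**
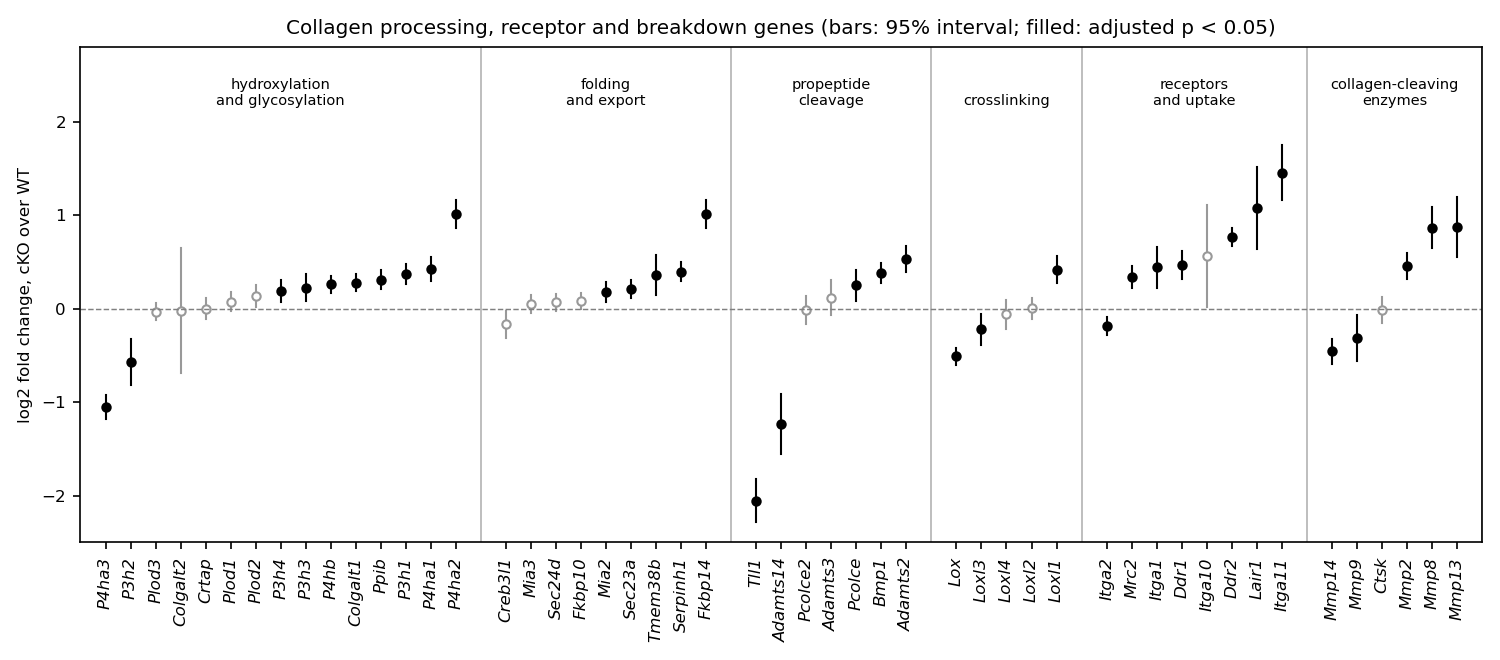
Log2 fold change of Pbrm1 cKO over WT (y axis) for the 50 tested genes of collagen modification, folding, cleavage, crosslinking, binding and breakdown, with 95% intervals; filled points passed an adjusted p under 0.05. Tll1 at −2.05 and Itga11 at 1.46 are the extremes, and 26 of the 35 genes that changed lie above 0.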

How the data were processed

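Raw read counts of genes were deposited by the authors in 1 table, a column per library for 6 libraries. Per the file headers and the submitters' processing notes, reads were trimmed with cutadapt, aligned with HISAT2 to GRCm38.p5 and counted with featureCounts 1.6.4 on GENCODE M18, reverse-stranded, with multi-mapping reads left out. Symbols, gene types and principal transcripts were taken from GENCODE M21 (99.7% of rows named). Replicate libraries differed by more than sampling noise. Since the labels give no animals, p-values measure the spread between these libraries.

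The main test was the two-sided quasi-likelihood F-test of edgeR 4.0.16 (R 4.3.3; TMM factors, filterByExpr), with Benjamini-Hochberg adjustment over all 15376 genes and a threshold of 0.05. DESeq2 1.42.0, limma-voom (limma 3.58.1), other scalings and filters, a replicate block and fits without each library were alternatives. On simulated counts the test recovered 181 of 200 genes changed by 1 on the log2 scale (90.5%) among 15170, with 6 false calls. In the data far more genes were called (43.7%) and the median absolute log2 fold change was 0.22. The simulation therefore does not give the recovery or false calls for smaller changes. Intervals and floors (3 counts) cover counting error or library spread only, since reads carried no molecular identifiers.

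The collagen genes, the processing lists and the cell type marker lists (smooth muscle, fibroblast, leukocyte, epithelial, endothelial, pericyte, mesothelial and Schwann cell) were chosen with earlier results of these data known. Every collagen gene was accounted for, with all library values where the adjusted p was under 0.05 or the mean reached 5 CPM per kilobase; in each processing list, up to 8 genes past the threshold were named by absolute log2 fold change. Level per kilobase used the merged exon length of the table.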

Additional observations from a re-analysis of the deposited data

How the results depend on the processing

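Of the 21 collagen genes that changed, 16 kept their direction and stayed past the threshold under all 14 alternatives, 5 lost the call in 1 or more (Col17a1, Col27a1, Col6a3, Col7a1 and Col8a2) and 0 reversed. DESeq2 called 19 collagen genes and 5535 of all genes. Fits that left out a library called 18 to 22 collagen genes, 32 to 36 processing genes and 5532 to 7054 of all genes. Asking also for an absolute log2 fold change above 1 left 4 collagen genes, 7 processing genes and 998 of all genes. The correlation of deviations between same-numbered libraries was −0.0243, 0.0353 and 0.0928, so the numbers were not taken as pairs, and the replicate block called 20 collagen genes and 6908 of all genes. The collagen sum of the fibrillar class was 127.6% of WT with principal transcript lengths, an alternative chosen after seeing the data, and that of the other classes was 105.2% as CPM not divided by length. Some genes that did not pass the main test passed as higher under alternatives. Col20a1 did so under 3 (no filter, without WT replicate 1 and without Pbrm1 cKO replicate 3). Col5a3 did so under 2 (without WT replicate 1 and without Pbrm1 cKO replicate 3) and Col9a3 under 1 (without WT replicate 2). Col4a1 also did so under 1 (without Pbrm1 cKO replicate 2). Log2 fold changes that reversed belonged to genes that did not pass the main test. Col4a1 was −0.0063 with limma-voom, −0.0076 with upper-quartile factors, −0.0060 with no filter and −0.0048 with the replicate block, and ranged from −0.059 to 0.117 without each library. Col4a6 was −0.0081 with upper-quartile factors and −0.0060 with no filter, and ranged from −0.046 to 0.061 without each library. Without each library, Col1a1 ranged from −0.013 to 0.15, Col4a2 from −0.13 to 0.067, Col11a2 from −0.43 to 0.058 and Col12a1 from −0.18 to 0.13. At −0.18, without Pbrm1 cKO replicate 2, Col12a1 passed as lower (adjusted p = 0.00201, edgeR). The cause was not tested. Of the 8 collagen genes with few counts, 7 were tested with no filter and 0 passed, and Col9a1 had no counts.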
